A study of Mus musculus with 28 samples.

Results

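Mitochondrial genome transcripts are the RNAs copied from the small circular DNA inside mitochondria rather than from the chromosomes of the nucleus. They were taken as every row of the deposited count table whose gene name starts with mt-, which gave 37 of 45513 rows: 13 protein-coding genes, 2 ribosomal RNA (rRNA) genes and 22 transfer RNA (tRNA) genes. Of these, 36 entered the tests across 24273 genes. The phenylalanine tRNA mt-Tf, which had at most 5 counts in any library and 0 in 15 of 28 libraries, did not pass the filter on low counts.

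The libraries were made from total RNA of the ventricular myocardium of male adult C57BL/6 mice. Mice had either 5/6 nephrectomy, the removal of most kidney tissue as a model of chronic kidney disease (CKD), or sham surgery when 6 weeks old. On day 7 they received by gavage either Oxalobacter formigenes (Oxf), an oxalate-degrading gut bacterium, in 200 µl of culture medium, or 200 µl of the medium alone as vehicle. All 4 groups, vehicle controls included, ate a diet with 1% hydroxyproline and 0.5% calcium added. The groups were sham-vehicle (n = 10 mice), CKD-vehicle (n = 6), sham-Oxf (n = 5) and CKD-Oxf (n = 7). The study describes 10 mice per group, and the other mice are not analysed here. Each library is 1 mouse, with replicates numbered within a group in record order.

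The mitochondrial genome is transcribed from both of its strands as long precursors that span many genes, and the tRNAs that lie between the messenger and ribosomal RNAs are cut out to free them. Its coding genes specify core subunits of respiratory complexes I, III and IV and of ATP synthase (complex V), while the other subunits and the proteins that copy, transcribe and translate this genome come from nuclear genes. Heart muscle is among the tissues richest in mitochondria, so these transcripts make up a large part of its RNA.

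The tRNAs that bear on the comparisons below are mt-Tm, which carries methionine, mt-Tl1, which carries leucine, and mt-Te, which carries glutamate. They had the smallest p-values among the tRNAs for Oxf against vehicle. They are shown 5′ to 3′ as DNA letters of the annotated strand (GRCm38, the build named mm10), with the anticodon in capitals. mt-Tm lies at chrM:3845-3913 on the major-gene strand, mt-Tl1 at chrM:2676-2750 on the same strand, and mt-Te at chrM:14071-14139 on the opposite strand.
mt-Tm: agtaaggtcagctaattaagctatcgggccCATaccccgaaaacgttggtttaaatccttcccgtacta
mt-Tl1: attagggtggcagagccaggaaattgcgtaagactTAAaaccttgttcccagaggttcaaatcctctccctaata
mt-Te: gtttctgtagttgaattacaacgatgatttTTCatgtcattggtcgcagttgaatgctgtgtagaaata

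Neighbouring genes on this genome share bases, which matters for how reads were counted. mt-Atp8, a small ATP synthase subunit gene of 204 bases, overlaps mt-Atp6 by 43 bases, set in capitals at its end. mt-Nd6, the one coding gene on the opposite strand, ends in 14 bases that are also the end of mt-Nd5, in capitals in the last 60 bases of each gene. The counting was not stated to use strand, so reads from mt-Nd6 and from the RNA opposite it cannot be told apart, and the same holds for the 8 tRNA genes on that strand.
mt-Atp8: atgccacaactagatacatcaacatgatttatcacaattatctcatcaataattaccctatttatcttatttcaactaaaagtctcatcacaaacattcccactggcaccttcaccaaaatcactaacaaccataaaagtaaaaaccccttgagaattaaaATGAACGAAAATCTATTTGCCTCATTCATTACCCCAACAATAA
mt-Nd6 last bases: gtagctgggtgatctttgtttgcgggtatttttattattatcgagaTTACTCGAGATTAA
mt-Nd5 last bases: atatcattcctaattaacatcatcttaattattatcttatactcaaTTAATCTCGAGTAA

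Library depth ran from 19.8 to 65.4 M counts (M for mega). The sham-Oxf library of replicate 1 stood apart: it had a count for 15879 genes, and 865 genes with 1 to 20 counts, where the other 27 libraries had 8833 to 13818 such genes. It listed 9 members at 0, all tRNAs, against at most 1 in any other library. Ventricular markers were present in every library, with Myl2 between 225.2 and 1994 counts per M counts (CPM), after scaling by trimmed mean of M-values (TMM).

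The mitochondrial transcripts took 22.1% ± 4.08 (SD, n = 10) of library counts in sham-vehicle hearts and 19.7% ± 3.05 (n = 6) in CKD-vehicle. They took 20.1% ± 5.99 (n = 5) in sham-Oxf and 19.1% ± 3.88 (n = 7) in CKD-Oxf. The lowest library held 13.4% and the highest 28.1%, and the ranges of the groups overlapped in every pairwise comparison. Of the 4 comparisons that change surgery or gavage alone, CKD-vehicle minus sham-vehicle had the largest difference of means, -2.41 percentage points, which was less than either group's SD. By medians sham-Oxf minus sham-vehicle was larger, -5.02 points. In bulk tissue a lower share can come from fewer mitochondria-rich cells, from less of this RNA per cell or from more of other RNA in the library. These cannot be told apart.

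The coding genes made up most of that share. Their share was 16.8% ± 2.6 (SD) with vehicle after sham surgery and 15.2% ± 1.23 after nephrectomy, and with Oxf it was 16.9% ± 6.30 and 14.8% ± 4.02. With the vehicle groups first and sham before CKD in each, the rRNA genes took 5.35% ± 2.61, 4.48% ± 2.03, 3.17% ± 1.65 and 4.24% ± 1.40. The tRNA genes together took between 0.0139% and 0.0321% of counts in any library. Coding counts and rRNA counts did not keep one proportion from mouse to mouse: there were between 11.2 and 66.1 rRNA counts per 100 coding counts, and this spread lay within groups as well as between them.

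**Figure D1:**
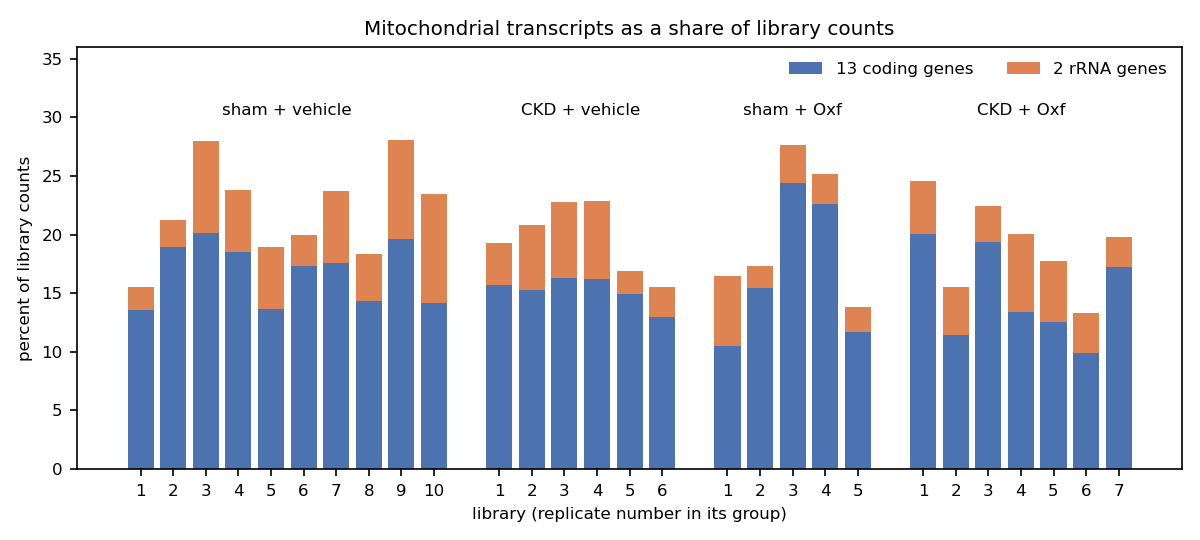
Bars give, for each of the 28 libraries, the percent of library counts in the 13 coding genes (blue) and the 2 rRNA genes (orange); the tRNA share is too small to draw. Totals run from 13.4% to 28.1% and the 4 groups overlap.

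mt-Co1, the catalytic subunit of cytochrome c oxidase (complex IV), was the most abundant member on every scale. Its level averaged 63790 CPM over all libraries, or 41290 per kilobase. The small-subunit rRNA mt-Rnr1 followed at 28320 CPM per kilobase, then mt-Co3 (27970), mt-Co2 (17890), mt-Atp6 (16730) and the large-subunit rRNA mt-Rnr2 (13930). mt-Cytb, the complex III subunit, stood at 10980 CPM per kilobase. The complex I genes lay lower, between 5155 for mt-Nd5 and 9290 for mt-Nd4l on the major-gene strand, and mt-Nd6 on the opposite strand was lowest of the coding genes at 3482.

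The tRNA genes spanned a far wider range of levels than the coding genes. mt-Te averaged 748.6 CPM per kilobase, mt-Tp, the proline tRNA, 736.6, and mt-Ts1, a serine tRNA, 704.3. These 3 genes lie on the strand opposite most members, as do mt-Tq, mt-Ta, mt-Tn, mt-Tc and mt-Ty, and the 8 together held between 61.6% and 78.6% of tRNA counts in each library. At the other end, the valine tRNA mt-Tv averaged 5.12 CPM per kilobase and the aspartate tRNA mt-Td 5.14. Whether a read came from a mature tRNA or from an uncut precursor cannot be told apart in this table.

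**Figure D2:**
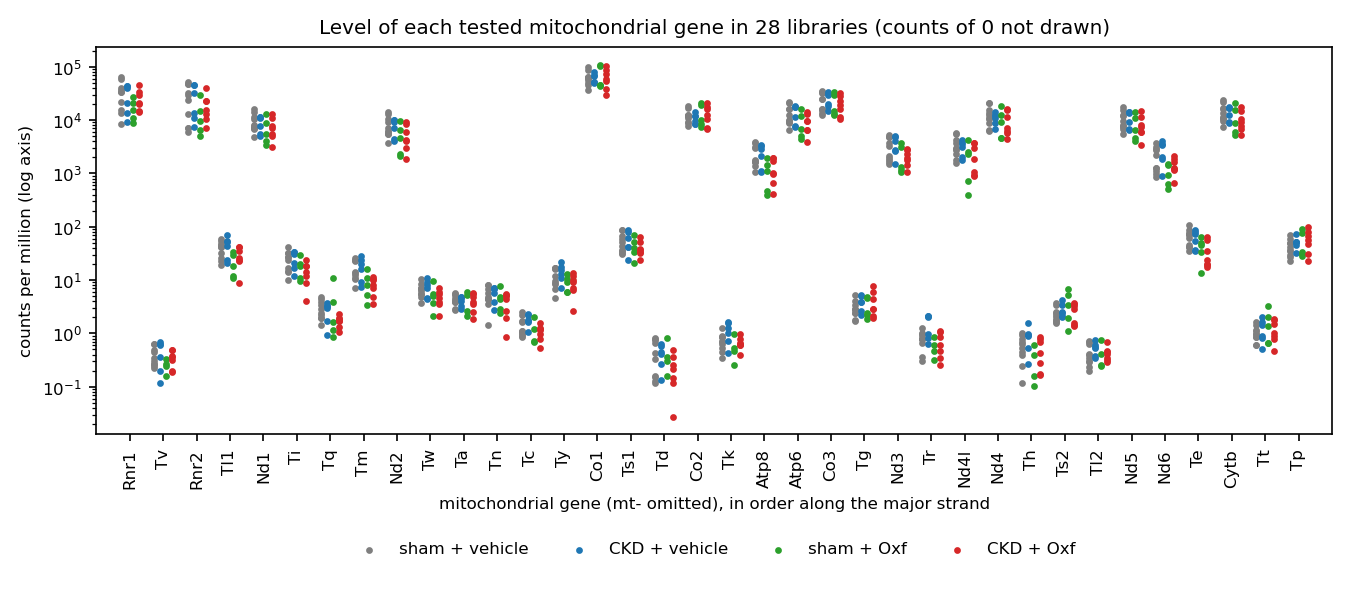
Each point is one library's level of one of the 36 tested genes, in CPM on a log axis, with genes in order along the genome and groups by colour. The coding and rRNA genes sit far above the tRNA genes, and within each gene the groups overlap.

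CKD against sham surgery in vehicle-treated mice asked whether nephrectomy alone moved these transcripts. No member passed the test (edgeR quasi-likelihood, Benjamini-Hochberg adjusted over all genes), against 0.00824% of all genes. DESeq2 and limma called no member either, and 1 member was higher at an unadjusted p under 0.05, beside 4.46% of all genes (2.37% lower and 2.09% higher). That was the arginine tRNA mt-Tr (log2 fold 0.88 ± 0.41 SE, adjusted p = 0.955), at 0.782 CPM on average in sham-vehicle and 1.45 in CKD-vehicle. The 36 members had a median log2 fold of 0.09, with 14 below 0, and all genes tested had a median of -0.03. The coding genes lay between -0.21 and 0.39, with mt-Nd6 at the top.

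Oxf against vehicle within CKD mice gave no member past the threshold either, where 0.033% of all genes passed (0.00824% lower and 0.0247% higher). DESeq2 called none, beside 0.832% of all genes. Limma with sample weights called 6, all tRNAs and all lower, beside 15% of all genes in either direction in the same fit. The share lower alone is not given here, so this count is not read as a result about the members. At an unadjusted p under 0.05, 9 of 36 members were lower and none higher, beside 13.1% of all genes in either direction (6.2% lower and 6.89% higher). The smallest p was that of mt-Tm (log2 fold -1.14 ± 0.35 SE, adjusted p = 0.214). The members' median was -0.52, with 32 of 36 below 0, and the median over all genes was 0.03. With the share of 7SL, an abundant small cytoplasmic RNA, as a covariate the members' median was -0.34.

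Oxf against vehicle within sham mice likewise gave 0 members, and 0% of all genes passed. At an unadjusted p under 0.05, 6 members were lower and 1, the serine tRNA mt-Ts2, was higher, beside 12.6% of all genes (5.98% lower and 6.6% higher). The highest sham-Oxf level of mt-Ts2, 6.74 CPM, was in replicate 1, against a group median of 3.35. DESeq2 and limma called no member. mt-Atp8 had the smallest p (log2 fold -1.11 ± 0.41 SE, adjusted p = 0.271). The members' median was -0.43, with 29 of 36 below 0, and the median over all genes was -0.04. Without sham-Oxf replicate 3 the members' median was -0.81, and with the 7SL share as a covariate it was -0.15.

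When the Oxf contrast was averaged over both surgeries, which uses all 28 libraries, 2 of 36 members passed, the methionine tRNA mt-Tm and the complex I gene mt-Nd6, and both fell. In this contrast 2.81% of all genes passed, 1.54% as lower and 1.26% as higher. With both calls lower the matching share is 1.54%, and 2 of 36 members is too small a count to be read as above it. At an unadjusted p under 0.05, 15 members were lower and none higher, beside 23% of all genes in either direction (11.5% lower). The members' median log2 fold was -0.56, with 30 of 36 below 0, and all genes tested had a median of 0.00312. This average shares its libraries with both contrasts above and adds no independent evidence to them.

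mt-Tm stood at 7.09 CPM in the lowest library, 13.7 in the median and 25.9 in the highest sham-vehicle library, and at 7.54, 18.1 and 27.9 in CKD-vehicle. The sham-Oxf libraries read 5.26, 10.9, 16.3, 8.13 and 3.44 CPM, and CKD-Oxf ran from 3.59 through a median of 7.96 to 11.5. The ranges overlapped, but 11 of 12 Oxf libraries lay below the vehicle median and 4 lay below every vehicle library. Averaged over surgery, mt-Tm fell by 1.02 on the log2 scale (SE 0.25, adjusted p = 0.0351). The log2 fold was -1.14 in CKD mice and -0.90 in sham mice, neither past the threshold alone, and the interaction of surgery and gavage was not past the threshold (-0.24 ± 0.49 SE, adjusted p = 1).

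mt-Nd6 encodes a membrane subunit of complex I and is the sole coding gene on its strand. Its lowest, median and highest libraries read 856.9, 1732 and 3761 CPM in sham-vehicle and 886.8, 2703 and 4069 in CKD-vehicle. The sham-Oxf libraries held 501.9, 913.6, 1525, 1411 and 621.5 CPM, and CKD-Oxf 653.6, 1238 and 2078. All 12 Oxf libraries were below the vehicle median and 3 were below every vehicle library, while 8 of 16 vehicle libraries were above every Oxf library. mt-Nd6 fell by 0.95 on the log2 scale (SE 0.26, adjusted p = 0.0472), with log2 folds of -0.90 in CKD mice and -1.01 in sham mice that did not pass alone.

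Both calls lie close to the threshold. The call of mt-Tm was lost when any 1 of 12 libraries was left out (sham-vehicle replicates 4 and 7, CKD-vehicle 1 to 4, sham-Oxf 4 and 5, CKD-Oxf 2, 3, 5 and 6), with adjusted p from 0.0529 to 0.0739. That of mt-Nd6 was lost without any 1 of 19 libraries and kept only without sham-vehicle replicates 1, 2, 6, 8 or 9, CKD-vehicle 5 or 6, sham-Oxf 3 or CKD-Oxf 4, and its adjusted p when lost ran from 0.0502 to 0.0957. In these 28 fits mt-Tm stayed between -1.18 and -0.92 and mt-Nd6 between -1.05 and -0.87. Without sham-Oxf replicate 1 mt-Tm alone passed (adjusted p = 0.046, mt-Nd6 0.0616). Without both it and CKD-Oxf replicate 4, which had the next fewest genes, 6 members passed, all lower, beside 19.1% of all genes in either direction. The share lower alone is not given for that fit, so this count is not read as a result about the members.

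**Figure D3:**
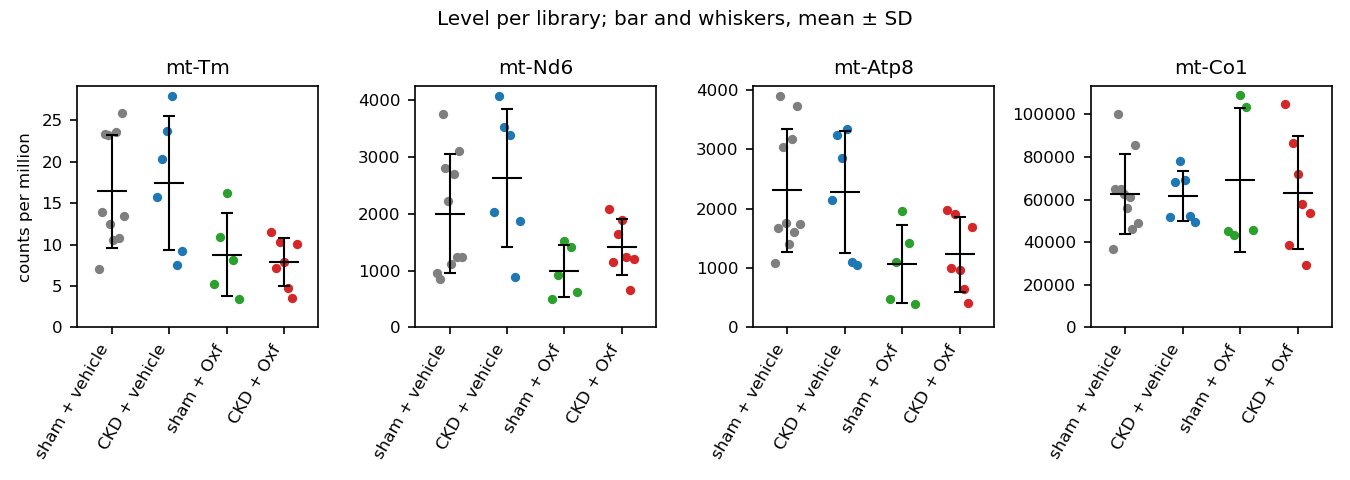
Points give the level of mt-Tm, mt-Nd6, mt-Atp8 and mt-Co1 in CPM in each library of the 4 groups; the bar and whiskers give the mean ± SD. Oxf libraries of the first 3 genes lie lower with overlapping ranges, and for mt-Co1, which overlaps too, 2 of 5 sham-Oxf libraries lie above every vehicle library.

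mt-Atp8 missed the threshold as tested and passed under 6 of 13 alternatives, always as lower: DESeq2 (adjusted p = 0.00978), limma (0.00584), DESeq2 size factors (0.0482), upper quartile scaling (0.0492), at least 10 counts in every library (0.0317) and without both sham-Oxf replicate 1 and CKD-Oxf replicate 4 (0.0429). It also passed in 8 of the 28 fits with 1 library left out. It read 1083, 1744 and 3886 CPM in the lowest, median and highest sham-vehicle library and 1043, 2496 and 3336 in CKD-vehicle. The sham-Oxf libraries held 471.3, 1104, 1955, 1428 and 388.2 CPM, and CKD-Oxf 408.5, 997.3 and 1970. Of 12 Oxf libraries, 6 lay below every vehicle library, and the log2 fold was -1.001 ± 0.29 (SE, adjusted p = 0.0513). Its overlapping neighbour mt-Atp6, the proton-channel subunit of ATP synthase, had a smaller difference, -0.58 ± 0.24 (adjusted p = 0.154).

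mt-Atp6 read 6404, 11330 and 21930 CPM in sham-vehicle, 7278, 14710 and 18130 in CKD-vehicle, and 3904, 9518 and 14380 in CKD-Oxf. Its sham-Oxf libraries held 4920, 6724, 15930, 11890 and 4347 CPM. The ranges of all groups overlapped. The log2 ratio of mt-Atp8 to mt-Atp6 counts was -2.54 ± 0.15 (SD) and -2.6 ± 0.19 in the vehicle groups of sham and CKD mice, and -3.11 ± 0.35 and -2.96 ± 0.34 in their Oxf groups; this ratio was chosen after its values were seen and has no test.

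The 3 complex IV genes lay near 0 for Oxf against vehicle. mt-Co1 read 36620, 61790 and 100300 CPM in the lowest, median and highest sham-vehicle library, 49460, 60260 and 77950 in CKD-vehicle and 29120, 57770 and 104700 in CKD-Oxf. Its sham-Oxf libraries held 45420, 43340, 109300, 103400 and 45520 CPM, so that 2 of 5 lay above every vehicle library. The difference averaged over surgery was 0.09 ± 0.21 (SE, adjusted p = 0.843), and those of mt-Co2 and mt-Co3 were 0.19 and -0.20. mt-Co3 turned to 0.17 with the 7SL share as a covariate, while mt-Co1 and mt-Co2 were above 0 under every scaling and covariate tried. When 1 library was left out, the value of mt-Co1 ran from -0.03 to 0.16, below 0 without sham-Oxf replicate 3 or 4.

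All 7 complex I genes were below 0 in this contrast, from -0.95 for mt-Nd6 to -0.28 for mt-Nd4, and only mt-Nd6 passed. All 7 were also below 0 under every other scaling and covariate tried. mt-Nd3 was next (-0.68, adjusted p = 0.108), followed by mt-Nd4l (-0.61) and mt-Nd2 (-0.60). mt-Cytb read 7465, 12370 and 23600 CPM in sham-vehicle, 8727, 14670 and 17660 in CKD-vehicle and 5229, 8993 and 17580 in CKD-Oxf, with sham-Oxf at 5255, 8884, 21260, 15210 and 6029. Its difference, -0.37 ± 0.23 (adjusted p = 0.352), did not pass, and the groups overlapped.

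The other coding genes are given by their group means, first the 2 vehicle groups (sham, then CKD) and then the 2 Oxf groups (sham, then CKD). In complex I, mt-Nd1 stood at 9412, 8657, 6884 and 7439 CPM, and mt-Nd2 at 8034, 7481, 5013 and 5254. mt-Nd3 stood at 3066, 3465, 2051 and 2010 CPM, and mt-Nd4l at 3332, 3099, 2049 and 2157. mt-Nd4 had means of 12570, 10840, 9797 and 9438 CPM, and mt-Nd5 of 10200, 10720, 8027 and 8106. In each of these 6 genes both Oxf means lay below both vehicle means, and the libraries overlapped. In complex IV, mt-Co2 stood at 12080, 10880, 13190 and 12950 CPM and mt-Co3 at 22380, 24470, 20700 and 19980, so that mt-Co2 alone of these had both Oxf means above both vehicle means.

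Among the coding and rRNA genes, mt-Rnr2 had the widest spread between mice, with a coefficient of variation of 69.4%, followed by mt-Rnr1 and mt-Nd6 at 56.7%, against 34.2% for mt-Co1. mt-Rnr1 read 8257, 33560 and 64120 CPM in sham-vehicle, 9011, 30560 and 43770 in CKD-vehicle and 14140, 20400 and 45810 in CKD-Oxf, and its sham-Oxf libraries held 27060, 8813, 21290, 15520 and 10690. mt-Rnr2 read 6027, 26580 and 51190, then 7276, 23210 and 45950, then 7121, 15450 and 40550 in the same groups, with sham-Oxf at 28930, 4928, 14870, 9788 and 6614. In both genes the ranges of all 4 groups overlapped. Neither passed for Oxf against vehicle (mt-Rnr1 -0.56 ± 0.30, adjusted p = 0.267; mt-Rnr2 -0.74 ± 0.38, adjusted p = 0.249). mt-Rnr2 passed as lower with limma (-0.98, adjusted p = 0.0495) and without both sham-Oxf replicate 1 and CKD-Oxf replicate 4 (-1.16, adjusted p = 0.0423), and with the 7SL share as a covariate it was -0.0099 (adjusted p = 0.99). With that covariate mt-Rnr1 was 0.068 (adjusted p = 0.9).

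Among the 21 tRNA genes tested, 17 were below 0 for Oxf against vehicle and mt-Tm alone passed. mt-Tl1 (-0.76 ± 0.23 SE, adjusted p = 0.0641) and mt-Te (-0.74 ± 0.24, adjusted p = 0.0757) came next. mt-Tl1 ran from 8.88 to 42 CPM over the 12 Oxf libraries and from 19.3 to 69.2 over the 16 vehicle libraries. Every Oxf library of mt-Tl1 was below the vehicle median. The 4 tRNA genes with values above 0 were mt-Tt for threonine (0.29), mt-Ts2 (0.27), mt-Tp (0.25) and mt-Tg for glycine (0.08), none past the threshold. The highest sham-Oxf levels of mt-Tt (3.32 CPM) and mt-Ts2 (6.74 CPM) were in replicate 1, against group medians of 1.38 and 3.35.

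Group means of the other tRNA genes follow in the same order of groups. Of those with means above 1 CPM in all groups, mt-Te stood at 63.6, 61.1, 41.4 and 33.7 CPM, mt-Ti for isoleucine at 23.9, 24.5, 17.5 and 14.2, and mt-Ts1 at 52.7, 56.0, 43.4 and 40.0. mt-Ty for tyrosine read 11.7, 14.3, 8.89 and 8.74 CPM, mt-Tw for tryptophan 6.58, 7.37, 5.24 and 4.66, and mt-Tn for asparagine 5.18, 5.54, 4.43 and 3.65. These 6 had both Oxf means below both vehicle means, with overlapping libraries and no call. mt-Ta for alanine read 4.30, 4.01, 3.23 and 3.97 CPM, mt-Tq 2.94, 2.65, 3.72 and 1.71, and mt-Tg 2.94, 3.82, 3.18 and 3.96. mt-Tp read 41.7, 50.4, 51.9 and 57.6 CPM, mt-Ts2 2.31, 2.77, 3.68 and 2.54, and mt-Tt 1.02, 1.22, 1.6 and 1.18. For mt-Tp both Oxf means lay above both vehicle means. mt-Ta was at 0 in sham-Oxf replicate 1 and between 2.14 and 5.97 CPM in the other sham-Oxf libraries, so no direction is read from its mean.

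The scarcest tRNA genes had a mean under 1 CPM in at least 1 group. mt-Tc for cysteine read 1.41, 1.77, 0.923 and 1.08 CPM, mt-Tr 0.782, 1.45, 0.449 and 0.676, and mt-Tk for lysine 0.722, 1.11, 0.446 and 0.666. mt-Th for histidine read 0.579, 0.853, 0.249 and 0.479 CPM, mt-Tl2, the other leucine tRNA, 0.422, 0.527, 0.332 and 0.422, mt-Td 0.435, 0.411, 0.33 and 0.23, and mt-Tv 0.388, 0.433, 0.201 and 0.345. The sham-Oxf mean was the lowest of the 4 in all of these but mt-Td, and sham-Oxf replicate 1 listed each of the 7 at 0.

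**Figure D4:**
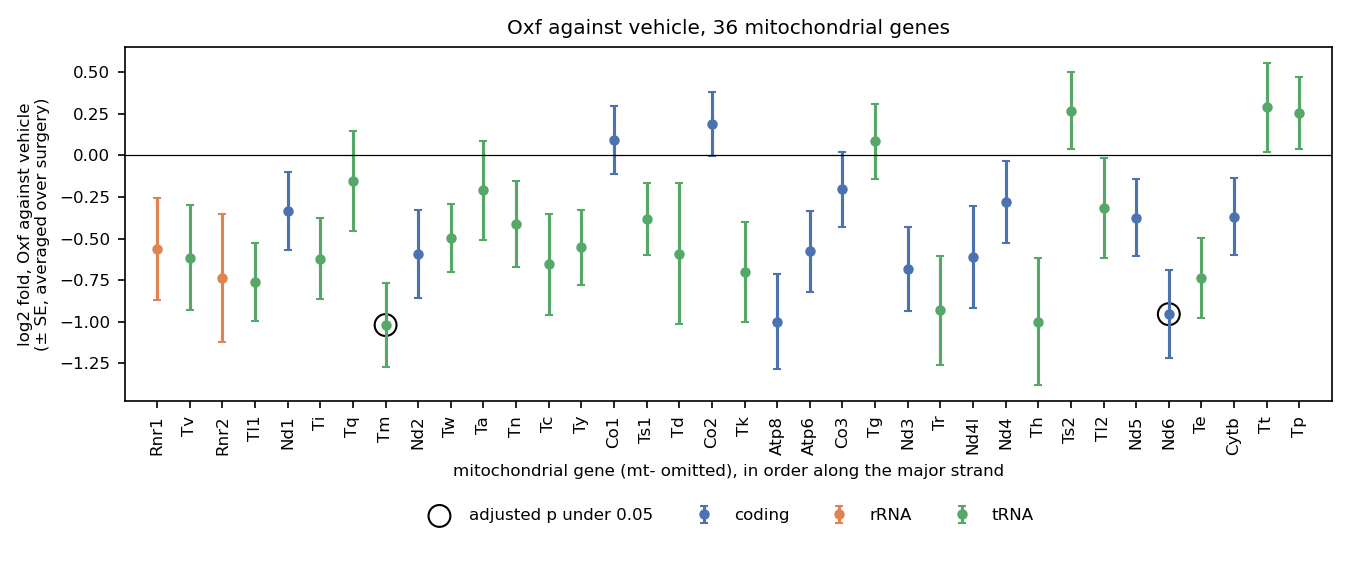
Points give the log2 fold of Oxf against vehicle, averaged over surgery, with its SE for the 36 tested genes in order along the genome, coloured by class; rings mark the 2 genes with adjusted p under 0.05, mt-Tm and mt-Nd6. Of the 36, 30 lie below 0, and mt-Co1 and mt-Co2 are the only coding genes above it.

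The makeup of the coding counts can be read without library scaling. mt-Co1 took 36.3% ± 2.63 (SD) of mitochondrial coding counts in sham-vehicle and 36.3% ± 4.09 in CKD-vehicle, against 44.0% ± 3.82 in sham-Oxf and 41.3% ± 2.33 in CKD-Oxf. mt-Co2 went from 7.02% and 6.38% in the vehicle groups to 8.47% and 8.55%. mt-Atp8 went from 1.28% and 1.26% to 0.650% and 0.796%, and mt-Atp6 from 7.36% and 7.51% to 5.38% and 5.93%. mt-Co3 had group means between 12.7% and 13.99%. These shares describe a makeup and have no test, since one gene's rise in a share lowers the others.

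**Figure D5:**
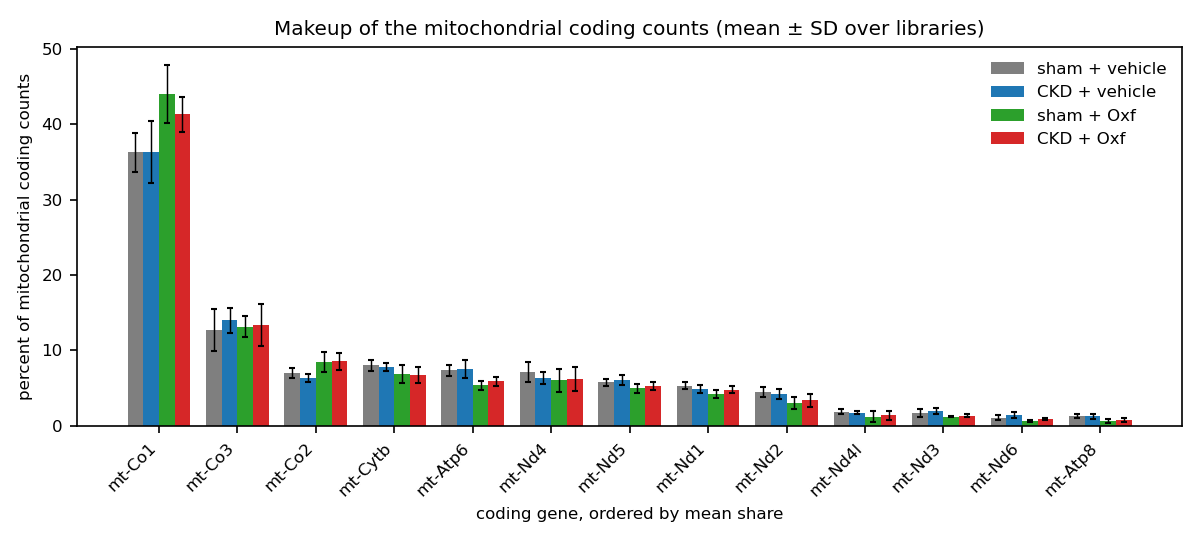
Bars give each coding gene's mean percent of mitochondrial coding counts with its SD over libraries, by group. mt-Co1 holds 36.3% in both vehicle groups and 44.0% and 41.3% in the Oxf groups, and the smallest genes hold under 2% each.

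Length and base content went along with these differences across the 13 coding genes. The Oxf log2 fold had a Pearson r of 0.56 and a Spearman rho of 0.64 with gene length, and 0.68 and 0.60 with GC content. mt-Atp8 is both the shortest coding gene (204 bases) and the lowest in GC (31.9%), while mt-Co1 has 1545 bases and 39.9% GC. The 13 values come from the same libraries and neighbouring genes, so they are a description only, and the part of length or base content in the result was not tested.

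CKD-Oxf against sham-Oxf asked whether surgery moved these genes in Oxf-treated mice. No member passed, 0% of all genes passed, and DESeq2 and limma called no member. The glutamine tRNA mt-Tq alone was lower at an unadjusted p under 0.05, beside 8.23% of all genes (5.22% lower and 3% higher). Its log2 fold was -1.11 ± 0.45 (SE, adjusted p = 0.46). Its sham-Oxf libraries read 11.2, 1.17, 3.82, 1.62 and 0.859 CPM, so 1 library set the difference: without sham-Oxf replicate 1 the value was -0.13 (adjusted p = 0.96). With limma and sample weights it was 0.19.

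Surgery averaged over gavage and the interaction of surgery and gavage gave 0 members, and 0% of all genes passed in each. For surgery, mt-Tr had the smallest p (0.72 ± 0.33 SE, adjusted p = 0.443), and 2 of 36 members were under 0.05 unadjusted, beside 10.6% of all genes (5.45% lower and 5.17% higher). For the interaction, mt-Ts2 had the smallest p (-0.79 ± 0.46, adjusted p = 1) and 0 members were under 0.05 unadjusted, beside 3.55% of all genes (2.07% lower and 1.48% higher). With 1 library left out, the interaction value of mt-Ts2 ran from -1.02 to -0.46. DESeq2 and limma called no member in either contrast.

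Ratios between neighbouring or partner genes need no library scaling, and 12 were tested by exact two-sided permutation. None passed after adjustment. mt-Nd6 relative to its neighbour mt-Cytb came nearest: the log2 ratio was -2.83 ± 0.36 (SD, n = 7) in CKD-Oxf and -3.44 ± 0.21 (n = 5) in sham-Oxf, higher by 0.60 (exact p = 0.00505, adjusted p = 0.0606). It was -2.92 ± 0.48 in sham-vehicle, 0.51 above sham-Oxf (exact p = 0.0466, adjusted p = 0.28, and 0.0303 without sham-vehicle replicate 2), and -2.48 ± 0.46 in CKD-vehicle. All 7 CKD-Oxf libraries were above the sham-Oxf median, with ranges of -3.165 to -2.251 in CKD-Oxf and -3.801 to -3.278 in sham-Oxf.

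The log2 ratio of mt-Rnr1 to mt-Rnr2, which lie one after the other on the genome, was 0.45 ± 0.39 (SD) and 0.22 ± 0.29 in the vehicle groups of sham and CKD mice, and 0.52 ± 0.36 and 0.51 ± 0.25 in their Oxf groups. Adjusted exact p-values ran from 0.283 to 0.957. mt-Co1 relative to Cox4i1, a nuclear-encoded subunit of the same complex, had log2 ratios of 8.45 ± 0.67, 7.98 ± 0.34, 8.72 ± 0.74 and 8.39 ± 0.68 in the same order. Its adjusted exact p-values ran from 0.305 to 0.585.

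Nuclear genes that maintain, transcribe, process and translate the mitochondrial genome were read from a list of 92, of which 90 were tested. For Oxf against vehicle averaged over surgery, 1 fell and none rose, beside the 2.81% of all genes given above. It was Ssbp1, the single-stranded DNA-binding protein of the replication fork (-0.34 ± 0.09 SE, adjusted p = 0.041). Polrmt, the mitochondrial RNA polymerase, read 0.29 (adjusted p = 0.154), and its partners Tfam and Tfb2m read -0.40 (0.16) and -0.35 (0.362). Lrpprc and Slirp, which together stabilise mitochondrial messenger RNA, read -0.18 (0.487) and -0.39 (0.233).

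A chosen list of 44 nuclear-encoded subunits of complexes I to V, not taken as the full set, had a median log2 fold of -0.56 in that contrast. Of these, 7 fell and none rose, beside 1.54% of all genes lower and 1.26% higher. These were Cox6a2 (-1.04), the muscle form of a complex IV subunit, Cox7b (-1.11) and Cox8b (-0.88), also of complex IV, Atp5k (-0.87), Atp5h (-0.83) and Atp5e (-0.94) of ATP synthase, and Uqcrc2 (-0.88), a core protein of complex III. Adjusted p ran from 0.0286 to 0.0495. For complex IV the 10 listed nuclear subunits had a median of -0.76, while its 3 mitochondrial genes lay between -0.20 and 0.19. In the other 6 contrasts no gene of either list passed. The smallest p among the subunits in each was that of Cox6a2 for Oxf within CKD mice (-1.21, adjusted p = 0.196), Cox7b for Oxf within sham mice (-1.13, 0.243), for CKD-Oxf against sham-Oxf (0.73, 0.696) and for surgery averaged (0.70, 0.353), Atp5g2 of ATP synthase for CKD-vehicle against sham-vehicle (0.44, 0.955) and Sdhc of complex II for the interaction (-0.43, 1). Among the upkeep and expression genes it was that of Mars2, a methionine tRNA ligase, for Oxf within CKD mice (-0.53, adjusted p = 0.2), and Ssbp1 for Oxf within sham mice (-0.41, 0.21). It was Oxa1l, an insertase of the inner membrane, for CKD-vehicle against sham-vehicle (0.34, 0.955), and Gabpb1, a nuclear regulator, for CKD-Oxf against sham-Oxf (-0.32, 0.271). It was Mpv17, an inner membrane protein, for the interaction (-0.67, 1), and Grsf1, an RNA granule protein, for surgery averaged (0.37, 0.298).

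Nuclear pseudogenes that are near copies of mitochondrial genes bear on the levels of the members they copy. In the annotation, 9 rows of the table share at least 200 runs of 50 bases with a member, 7 of them side by side on chromosome 1 (GRCm38, chr1:24611535-24616197) and 2 on chromosome 2. They held between 5.27% and 12.3% of library counts. RP23-8J15.4 (Gm28437), the copy of mt-Co3, had 1.0002 to 1.0007 times the count of mt-Co3 in the 28 libraries, and RP23-8J15.2 (Gm28661) had 1.0009 to 1.0022 times that of mt-Co2. The copy of mt-Atp6 had 1.126 to 1.259 times its count and that of mt-Nd4 0.351 to 0.48 times. The copy of mt-Nd3 had 0.973 to 0.995 times its count, and that of mt-Nd4l 0.981 to 1. Copies of mt-Co1 held 0.288 to 0.341 and 0.0874 to 0.107 times its count. Reads of these members and of their copies cannot be told apart in this table. mt-Nd6, mt-Atp8 and mt-Tm have no such copy among the 9. However, mt-Atp8 (204 bases) and mt-Tm (69 bases) are too short to hold 200 such runs, so the rule could not find copies of them. Sequence outside annotated transcripts was not searched. Without the copies in the denominator the mitochondrial share was 24.2%, 21.4%, 22.2% and 20.8% in the 4 groups.

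Library measures also moved with the groups. The share of counts in 7SL, a small cytoplasmic RNA needed for protein secretion, was 9.78% ± 5.24 (SD) and 13.6% ± 6.80 in the vehicle groups of sham and CKD mice, and 4.14% ± 3.52 and 8.81% ± 6.26 in their Oxf groups. A clock score, the mean log2 level of 10 clock genes around Dbp and Per1 minus that of 4 around Arntl, had medians of -0.21, -1.62, 2.12 and 1.34. With the log2 7SL share as a covariate no member passed for Oxf, mt-Tm read -0.76 (adjusted p = 0.203), mt-Nd6 -0.38 (0.459) and the members' median was -0.17. With the clock score as a covariate no member and no gene passed (mt-Tm -0.95, adjusted p = 0.635; mt-Nd6 -0.83, 0.694). In CKD mice the score ran from -2.565 to -0.338 with vehicle and from -0.163 to 1.879 with Oxf, without overlap. That fit therefore cannot tell the clock score and Oxf apart in CKD mice. In sham mice the ranges overlapped (-1.661 to 1.949 with vehicle, 0.768 to 2.281 with Oxf). The part of these measures in the result was not tested beyond those fits.

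Within groups of at least 6 mice, the log2 level of mt-Co1 was set against the log2 7SL share and against mouse number, 6 relations in all, and none passed (adjusted p from 0.569 to 0.951). With the 7SL share, r was 0.37 (permutation p = 0.297; rho 0.50, p = 0.145) in sham-vehicle, 0.64 (exact permutation p = 0.113; rho 0.71, p = 0.136) in CKD-vehicle and 0.50 (exact permutation p = 0.256; rho 0.29, p = 0.556) in CKD-Oxf. Without the 2 mice farthest from the median 7SL share these became 0.63, 0.94 and -0.28 (unadjusted exact permutation p = 0.0913, 0.25 and 0.683). The value in CKD-Oxf therefore rests on those 2 mice. With mouse number, r was 0.02 (permutation p = 0.951; rho -0.14, p = 0.708), -0.28 (exact permutation p = 0.571; rho -0.26, p = 0.658) and -0.40 (exact permutation p = 0.379; rho -0.57, p = 0.2). Without the 2 farthest mice these became -0.27, -0.95 and -0.35 (unadjusted exact permutation p = 0.5085, 0.0417 and 0.55). In CKD-vehicle both such values leave out 2 of only 6 mice, so they rest on very few mice. Mice were numbered in blocks by group, vehicle mice from 901 to 920 and Oxf mice from 921 to 940. Order and gavage therefore cannot be told apart between groups, and relations within groups do not bear on that.

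Markers of other cells varied as well. The sum of 6 atrial markers, among them Myl7 and Nppa, ran from 221.4 to 2853 CPM and from 1096 to 2655 in the vehicle groups of sham and CKD mice, and from 83.1 to 2141 and from 121.4 to 2018 in their Oxf groups. The 4 fat markers summed to between 4.17 and 141.9 CPM and the 3 blood markers to between 5.51 and 101.8. The 3 fibroblast markers had median sums of 378.6 and 362.8 CPM in the vehicle groups of sham and CKD mice and 253.5 and 251.7 in their Oxf groups, with overlapping ranges (180.3 to 578 over all libraries). The 4 leukocyte markers summed to at most 50.8 and 37.6 CPM in the vehicle groups and at most 115.2 and 81.2 in the Oxf groups, with medians between 18.1 and 24.3. The 4 liver markers, which a heart library should lack, summed to at most 21.7 and 1.94 CPM in the vehicle groups of sham and CKD mice. In their Oxf groups they summed to at most 53.2 (sham-Oxf replicate 1) and 88.5 (CKD-Oxf replicate 4). Group medians in the same order were 5.27, 0.885, 9.86 and 4.66 CPM. The part of these markers in the mitochondrial results was not tested.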

How the data were processed

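The values are raw counts per gene in 1 table that the authors deposited, with 0 columns left without a mapped sample. The submitters' processing notes name FastQC 0.11.7, MultiQC 1.9, STAR 2.6.1d, Subread, featureCounts 1.6.3 and the build mm10. Aligner settings, annotation, strand and the treatment of reads with several matches are not given in the sources used here. Positions and sequences come from GENCODE M21 (GRCm38).

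Counts were scaled with TMM factors and tested with edgeR 4.0.16 in R 4.3.3 (robust quasi-likelihood F test). The model held the mean of each of the 4 groups over all 28 libraries, and 7 contrasts were taken from it. The filterByExpr function with a minimum count of 10 left 24273 genes, over which p-values were adjusted by the Benjamini-Hochberg method, with a threshold of 0.05. Errors of log2 folds are SE. Log2 CPM used a prior count of 2, and ratios were taken after adding 0.5 counts to each gene. Ratios, within-group relations and figures used Python 3.11.15 with numpy 2.4.6, scipy 1.17.1 and matplotlib 3.10.9. Levels per kilobase divide by annotated gene length.

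Alternatives were DESeq2 1.42.0, limma 3.58.1 voom with sample weights, other scalings and filters, the clock score or log2 7SL share as a covariate, and each library left out. Library totals without TMM factors, scaling to the coding members, scaling without near copies, and a share without near copies were chosen after seeing the data. The members, gene lists and tests were chosen with earlier results of these data known. All coding, rRNA and tested tRNA members are named. Full values go to members past the threshold, a fixed set of 7 members, and the member with the smallest p where none passed. From the nuclear lists, genes past the threshold, otherwise the one with the smallest p, and 5 fixed genes are named. On simulated data for Oxf averaged over surgery (23715 genes), 90% of genes changed by a log2 fold of 1 and 99% of those changed by 2 were recovered, with 12 false calls. The changed genes all had means above 2 CPM. Counts were drawn independently for each gene, without the 7SL, clock or low-count differences between the real libraries, so these rates need not hold for the members.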

Additional observations from a re-analysis of the deposited data

Results flagged for a closer look

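The rRNA counts per 100 mitochondrial coding counts were far higher in sham-Oxf replicate 1 than in the other sham-Oxf libraries. That library held 56.6 rRNA counts per 100 coding counts, and the other 4 held between 11.2 and 18.4. The gap was 0.843 of the whole range of the group. It is also the library with the fewest detected genes (15879). Chance gives such a gap in about 1 in 20 groups, and 64 group checks over 16 measures, in which 3.2 would be given by chance, found 1.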

How the results depend on the processing

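The number of members called for Oxf averaged over surgery (2 as reported) was 8 with DESeq2 (8.79% of all genes called in that fit), 18 with limma (22%), 5 with at least 10 counts in every library (28 members tested; 10.1%) and 6 without both sham-Oxf replicate 1 and CKD-Oxf replicate 4 (19.1%), against 2.81% as reported. It was 1 with scaling from genes other than mitochondrial ones, near copies and 7SL, and 0 with no filter, with the clock score or the 7SL share as a covariate, with no TMM factors and with scaling to the coding members. All calls were of lower values, while the shares of all genes given here count both directions. The shares lower alone in these other fits are not given, so the counts are not read as a result about the members. The cause of the change in the number called was not tested. Without TMM factors the median of all genes moved to 0.16 and that of the members to -0.36, and scaled to the coding members they were 0.27 and -0.29. For Oxf within CKD mice (0 as reported), limma called 6 (15% of all genes) and the fit without those 2 libraries called 1 (8.86%). Leaving out 1 library gave 0 to 7 members for Oxf averaged over surgery, with 7 without CKD-Oxf replicate 4 (13.9% of all genes), and 0 to 0 in every other contrast. Over those 28 fits the genes called ran from 109 to 3362.

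mt-Tq for CKD-Oxf against sham-Oxf turned to 0.19 with limma, and mt-Rnr1 for Oxf averaged over surgery to 0.068 with the 7SL share as a covariate. Leaving out 1 library, mt-Co1 for Oxf averaged ran from -0.028 to 0.16. The log2 ratio of mt-Rnr1 to mt-Rnr2 ran from -0.0098 to 0.22 for sham-Oxf against sham-vehicle and from -0.16 to 0.0697 for CKD-Oxf against sham-Oxf. That of mt-Nd6 to mt-Cytb for sham-Oxf against sham-vehicle ran from -0.63 to -0.42 and passed in 1 of 15 fits, without sham-vehicle replicate 2. The 16 share differences under another denominator or by medians and the 56 with 1 library left out moved by less than 1 SD, but some changed sign. CKD-Oxf minus sham-Oxf was 2.48 percentage points by medians and ran from -2.60 to 0.87 with 1 library left out. CKD-Oxf minus CKD-vehicle ran from -1.55 to 0.33 with 1 library left out. No paired analysis was possible because the labels give no replicate numbers shared between groups. tRNA genes at 0 in sham-Oxf replicate 1 limit what low counts can show.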
